A study of Mus musculus with 10 samples.

Results

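Nkx3-2, Prrx1, Irx1, Irx5 and Irx6 are homeobox genes, which encode DNA-binding transcription factors. They were followed here through CpG methylation in the stromal cells of mouse lymph nodes. Their members are the differentially methylated regions (DMRs) to which the deposited tables give one of these 5 gene names as the nearest gene. These were 15 of 2132 DMRs: 8 at Nkx3-2, 4 at Prrx1 and 1 each at Irx1, Irx5 and Irx6. Where DMRs of different tables overlapped they were merged, which left 10 of 1602 regions with 197 of 24182 CpGs, under 5 of 1123 gene names. The genes were selected on the measured values of these libraries, namely the direction of the authors' location calls, all 15 being more methylated in mesenteric nodes. That direction is therefore a description and no finding.

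Whole-genome bisulfite sequencing gives, for each CpG, the share of reads that kept a cytosine, which is its methylation level. The cells were non-endothelial stromal cells of adult BALB/c mice, sorted as podoplanin-positive and negative for CD45, CD31 and Ter119, a gate that holds both fibroblastic reticular and CD34+ stromal cells. Gut-draining mesenteric lymph nodes (mLNs) were compared with skin-draining peripheral lymph nodes (pLNs; inguinal, and axillary or popliteal), in mice kept specific pathogen-free (SPF) or germ-free (GF), to ask how node location and microbiota shape methylation. The tissue labels of the pLN samples name a skin-draining mesenteric node, whereas their titles say pLN, and the titles were followed. Each node was represented by 3 libraries of SPF and 2 libraries of GF mice, 10 in all. The GF colony had been founded by caesarean delivery and did not come from the institution of the SPF colony, so colony and housing cannot be told apart. The authors left out 1 mLN-GF and 1 pLN-GF replicate as outliers, and the GF spread given here is that without them. The labels number the replicates without naming animals, so p-values measure the spread between these libraries, which may in part be technical. The labelled cell type was not checked here, because the values used cover CpGs inside DMRs alone.

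Over the CpGs inside all DMRs, the mean level of the libraries lay between 48.2% and 52.2%, and each library had values for 99.6% to 99.9% of these CpGs. The number of reads behind each fraction is not known, so no interval for counting error is given. Over the 197 member CpGs, the 5 mLN libraries had means of 55.5% to 63.3%, with mLN-SPF replicate 3 the lowest, and the 5 pLN libraries had 26.4% to 33.7%.

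As background, CpG methylation is a mark that dividing cells copy, and its pattern over promoters and enhancers differs between cell types and body regions. Nkx3-2, also called Bapx1, is a repressor of the NK class that acts in the axial skeleton and in the mesenchyme of stomach and spleen. Prrx1 is a paired-type factor of limb and facial mesenchyme that is used as a marker of fibroblast lineages. The Iroquois factors pattern many tissues, including limb and nervous system, and their genes stand in a pair of clusters, Irx1, Irx2 and Irx4 in one and Irx3, Irx5 and Irx6 in the other.

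Of the 10 regions, 1 lay in an intron, 1 reached into the 3′ end of a gene and 8 were intergenic in the GENCODE annotation of GRCm38. None overlapped the annotated 5′ end of its gene, and the nearest edge lay between 1243 bp and 234500 bp from it. The sequences below are the 200 forward-strand bases, read from the GRCm38 genome of RefSeq, that hold the most tabulated CpGs in the largest region of each gene. They are shown because the levels described next belong to these CpGs, which are in capitals.

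Nkx3-2, chr5:41761234-41761433: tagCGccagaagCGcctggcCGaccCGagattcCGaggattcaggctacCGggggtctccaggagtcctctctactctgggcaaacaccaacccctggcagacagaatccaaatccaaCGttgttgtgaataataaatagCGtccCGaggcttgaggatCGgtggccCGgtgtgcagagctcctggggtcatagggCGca
Prrx1, chr1:163309007-163309206: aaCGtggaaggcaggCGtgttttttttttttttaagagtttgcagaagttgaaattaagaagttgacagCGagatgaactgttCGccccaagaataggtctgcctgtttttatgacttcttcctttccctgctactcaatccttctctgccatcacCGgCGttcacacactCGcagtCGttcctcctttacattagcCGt
Irx1, chr13:72198711-72198910: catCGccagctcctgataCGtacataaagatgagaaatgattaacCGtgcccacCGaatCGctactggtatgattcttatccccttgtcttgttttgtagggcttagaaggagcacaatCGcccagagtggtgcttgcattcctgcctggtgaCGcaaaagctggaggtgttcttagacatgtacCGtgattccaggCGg
Irx5, chr8:92449739-92449938: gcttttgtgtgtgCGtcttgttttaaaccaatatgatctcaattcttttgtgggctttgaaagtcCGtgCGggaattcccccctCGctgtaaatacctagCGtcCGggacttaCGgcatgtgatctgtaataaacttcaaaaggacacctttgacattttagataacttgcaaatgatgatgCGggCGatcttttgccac
Irx6, chr8:92618435-92618634: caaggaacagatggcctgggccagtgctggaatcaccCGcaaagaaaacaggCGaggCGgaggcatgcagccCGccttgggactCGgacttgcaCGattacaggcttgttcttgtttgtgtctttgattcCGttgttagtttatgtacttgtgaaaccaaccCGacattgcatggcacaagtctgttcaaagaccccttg

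The Nkx3-2 stretch, just past the 3′ end of the gene, holds 12 CpGs. Their mean level was 37.6% to 72.6% in the mLN libraries and 11.0% to 28.1% in the pLN libraries. The 9 CpGs of the Prrx1 stretch had 49.6% to 66.6% in mLN and 0% to 3.70% in pLN, the widest contrast of the 5. The 9 Irx5 CpGs had 62.6% to 74.6% in mLN and 17.3% to 24.9% in pLN. In the other two stretches the nodes were closer, with 30.2% to 54.3% against 12.7% to 22.7% over the 9 CpGs of Irx1, and 69.2% to 81.3% against 24.2% to 59.9% over the 8 CpGs of Irx6. In these sorted bulk samples, a different mix of cells and different methylation within cells cannot be told apart.

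**Figure D1:**
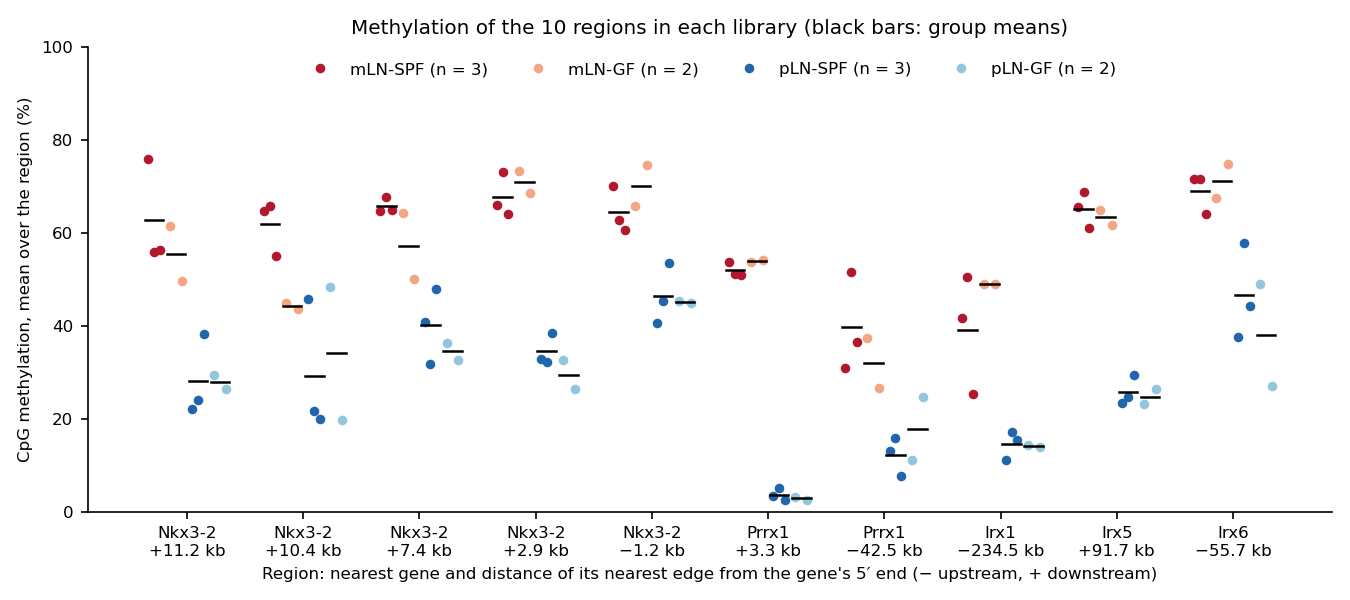
Mean CpG methylation (percent, vertical axis) of the 10 regions in each of the 10 libraries, with regions named by gene and by the distance of their nearest edge from the 5′ end of the gene. Points are libraries and black bars group means; mLN points (red shades) lie above pLN points (blue shades) in 9 regions, and they overlap at the Nkx3-2 region of 5 CpGs.

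Nkx3-2 (ENSMUSG00000049691, chr5:41761483-41764501, minus strand) had 5 regions with 116 CpGs, 4 beyond or at its 3′ end and 1 upstream. The largest, chr5:41759738-41761629, has 47 CpGs over 1892 bp and covers the last 147 bp of the 3′ UTR. Its levels were 66.0%, 73.1% and 64.1% in the mLN-SPF libraries and 73.3% and 68.6% in the mLN-GF libraries. The pLN-SPF libraries had 33.0%, 32.2% and 38.5% and the pLN-GF libraries 32.6% and 26.3%. All mLN values thus lay at least 25.7 points above all pLN values. Levels fell towards the gene in both nodes. The 15 CpGs farthest from the gene had 79.2% ± 8.51 in mLN and 43.9% ± 3.58 in pLN (SD, n = 5), and the 15 CpGs nearest to it had 56.8% ± 3.96 and 21.1% ± 8.58 (SD, n = 5). The difference was similar along the region, with 35.3, 38.4 and 35.7 points in the outer, middle and inner CpGs.

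The upstream region of Nkx3-2, chr5:41765744-41767019, starts 1243 bp before the gene and has 40 CpGs, of which the authors counted 22. Its levels were 70.1%, 62.7% and 60.6% in mLN-SPF and 65.8% and 74.5% in mLN-GF. In pLN-SPF they were 40.5%, 45.2% and 53.5%, and in pLN-GF 45.4% and 44.9%. This was the smallest location difference of the 10 regions, 20.8 points, yet the nodes did not overlap. Here the difference was larger on the side near the gene, 25.2 points over 13 CpGs, than at the far end, 15.8 points over 13 CpGs. The far end holds the CpG at position 41766872, the 1 of 197 that was lower in mLN, with 70.8% against 73.4%.

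Further downstream, the region chr5:41756231-41757102 (15 CpGs) had 64.7%, 67.8% and 64.8% in mLN-SPF, 64.2% and 50.1% in mLN-GF, 40.9%, 31.9% and 48.0% in pLN-SPF and 36.3% and 32.7% in pLN-GF. Its nodes were 2.10 points apart at the closest libraries. The region chr5:41752856-41753323 (9 CpGs) lies farthest from the gene, 11178 bp from its 5′ end. It had 75.9%, 55.9% and 56.4% in mLN-SPF, 61.5% and 49.6% in mLN-GF, 22%, 24.1% and 38.3% in pLN-SPF and 29.4% and 26.5% in pLN-GF. Between them, the region chr5:41753758-41754084 rests on 5 CpGs and was the only one in which the nodes overlapped. There pLN-GF replicate 1 with 48.3% and pLN-SPF replicate 1 with 45.8% stood above mLN-GF with 45% and 43.7%. The mLN-SPF libraries had 64.8%, 65.8% and 55.0%, and the remaining pLN libraries 21.7%, 20% and 19.8%.

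**Figure D2:**
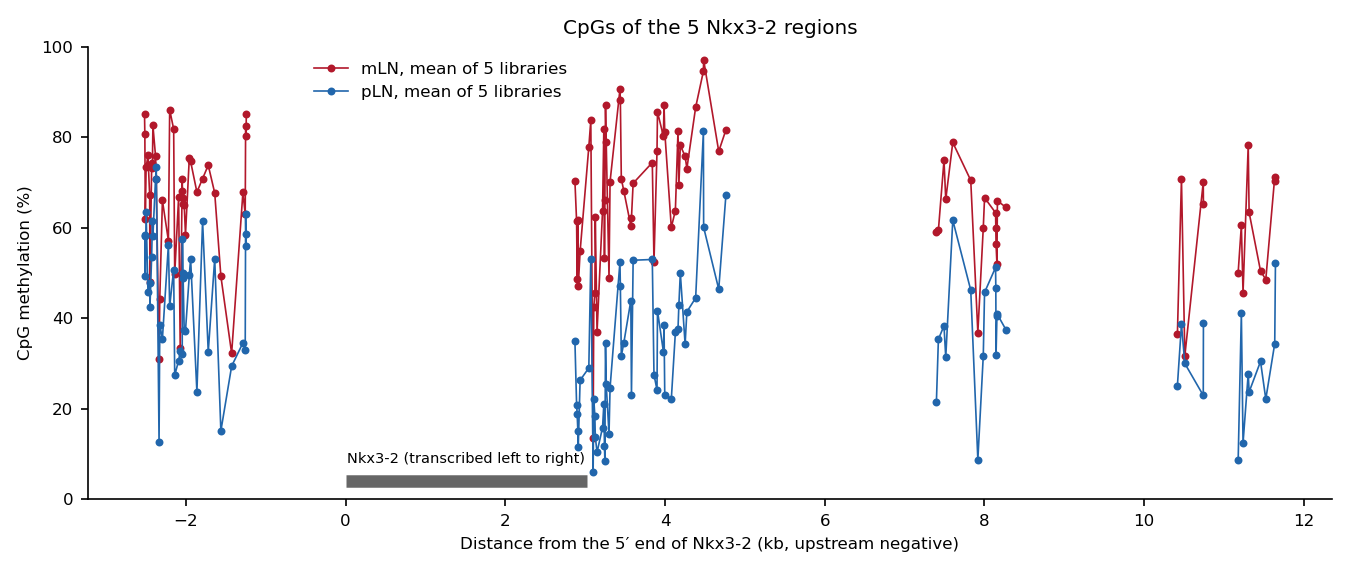
Methylation (percent, vertical axis) of the 116 CpGs in the 5 Nkx3-2 regions against distance from the 5′ end of the gene in kb, as the mean of 5 mLN libraries (red) and of 5 pLN libraries (blue); the grey bar is the gene. The mLN mean lies above the pLN mean at all but 1 CpG, and both fall towards the 3′ end of the gene in the 47-CpG region.

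Prrx1 (ENSMUSG00000026586, chr1:163245119-163313710, minus strand) had the region with the lowest pLN level of the 10. It lies at chr1:163308926-163310398 in the first intron, 3312 bp from the 5′ end, and its lowest-numbered 142 bp also cover an exon of Gm37644, a transcript to be experimentally checked. Its 21 CpGs had 53.7%, 51.2% and 51.0% in mLN-SPF and 53.7% and 54.2% in mLN-GF. In pLN-SPF they had 3.37%, 5.07% and 2.58%, and in pLN-GF 3.13% and 2.57%. The groups were tight, with a gap of 45.9 points between the closest libraries. In pLN, 80 of 105 single values were listed at 0. Among the 788 regions higher in mLN, this one had the second lowest pLN level, and 4 of the 788 (0.508%) had a pLN mean under 5%. Its difference of 49.4 points stood at place 37 of 788.

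The mLN level of the Prrx1 intron was not even. The 7 CpGs farthest from the gene's 5′ end had 61.7% ± 7.13 and the middle 7 had 65.1% ± 4.56, whereas the 7 nearest to it had 31.6% ± 8.07 (SD, n = 5). In pLN the same CpGs had 2.97% ± 3.19, 4.02% ± 4.42 and 3.04% ± 2.12 (SD, n = 5). At position 163309166, a CpG in the printed stretch, the mLN libraries had 87.5%, 85.7%, 75.0%, 84.6% and 66.7% while all 5 pLN libraries were listed at 0. At 163309976 the nodes overlapped, with 17.8% in mLN and 9.77% in pLN as means of 5 libraries.

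The second Prrx1 region, chr1:163356167-163357012, is intergenic, with 8 CpGs, 42457 bp upstream of Prrx1 and 27895 bp from the coding gene Gorab. It had 31.0%, 51.6% and 36.5% in mLN-SPF, 37.3% and 26.7% in mLN-GF, 13.1%, 15.9% and 7.61% in pLN-SPF and 11.0% and 24.8% in pLN-GF. The lowest mLN and the highest pLN library, both GF, were 1.93 points apart. It is the region with the lowest CpG density of the 10, 0.945 CpGs per 100 bp.

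The Iroquois regions were far from their genes. The Irx5 region, chr8:92449359-92450122, and the Irx6 region, chr8:92618234-92618597, both lie between Irx5 (ENSMUSG00000031737, chr8:92357625-92376286, plus strand) and Irx6 (ENSMUSG00000031738, chr8:92674288-92680956, plus strand). The first begins 73073 bp past the 3′ end of Irx5 and the second ends 55691 bp before Irx6. In the annotation used here Gm45336, not a coding gene, is nearer to the Irx5 region, with a gap of 15644 bp. Irx5 acts in heart and skeletal development, and less is known of Irx6. The Irx1 region, chr13:72198223-72199036, lies 234500 bp upstream of Irx1 (ENSMUSG00000060969, minus strand), and the next coding gene on its other side is Irx2, 429783 bp away. On that side Gm4052, not a coding gene, is nearer than Irx1 and Irx2, with a gap of 151184 bp.

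The 16 CpGs of the Irx5 region had 65.6%, 68.7% and 61.1% in mLN-SPF and 65% and 61.7% in mLN-GF. They had 23.4%, 24.6% and 29.5% in pLN-SPF and 23.1% and 26.4% in pLN-GF, so the nodes were 31.6 points apart at the closest libraries. The contrast was larger away from Irx5. The 5 CpGs nearest to that gene had 55.6% ± 10.8 in mLN and 40.6% ± 6.13 in pLN (SD, n = 5). The next 6 had 70.1% ± 8.12 and 20.1% ± 4.17, and the last 5 had 66.5% ± 9.05 and 16.5% ± 2.90 (SD, n = 5). At the first CpG, position 92449359, both nodes were near full methylation, with 90.4% and 89.9%.

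In the Irx6 region (13 CpGs), mLN-SPF had 71.5%, 71.5% and 64.0% and mLN-GF 67.4% and 74.8%. The pLN libraries were more scattered, with 37.7%, 57.8% and 44.2% in pLN-SPF and 48.9% and 27.0% in pLN-GF. In the Irx1 region (23 CpGs), mLN-SPF had 41.7%, 50.5% and 25.3% and mLN-GF 49.0% in both libraries. The pLN libraries had 11.2%, 17.2% and 15.4% in SPF and 14.4% and 14.0% in GF. The low value among the mLN libraries was that of mLN-SPF replicate 3, and it still lay 8.07 points above the highest pLN library.

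**Figure D3:**
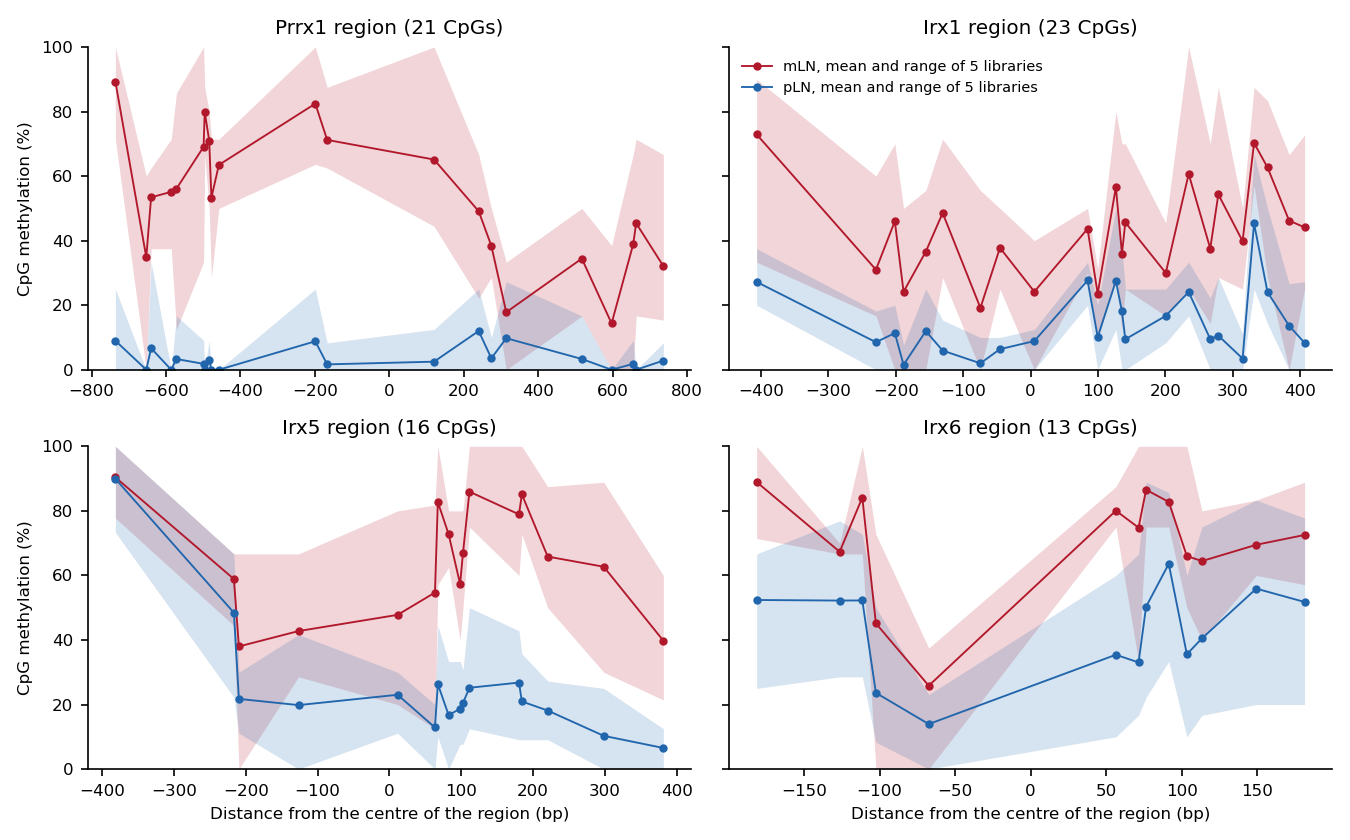
Methylation (percent, vertical axis) of each CpG against distance from the centre of the region in bp, for the Prrx1 intron and the Irx1, Irx5 and Irx6 regions; lines are means of 5 libraries of a node and shaded bands their lowest and highest values. The pLN line of Prrx1 stays near 0, and the Irx5 lines start together at 90.4% and 89.9% and then part.

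Over the 10 regions, the mean of mLN minus pLN ranged from 20.8 to 49.4 points (median 27.7), beside a median of 29.2 points over the 788 regions higher in mLN. The nodes did not overlap in 9 of the 10 regions; the background was 645 of all 1602 regions (40.3%), or 645 of the 788 higher in mLN (81.9%). Among single CpGs, 196 of 197 had a higher mean in mLN, and 51 (25.9%) had every mLN library above every pLN library. The background was 18.1% of all CpGs, and 34.8% of those in DMRs called more methylated in mLN. These CpGs were unevenly spread, with 14 of 21 in the Prrx1 intron, 10 of 16 at Irx5 and 12 of 47 in the large Nkx3-2 region, against 0 of 15 and 0 of 5 in the 2 Nkx3-2 regions with those numbers of CpGs. All of these values belong to the contrast by which the members were chosen.

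To ask whether the differences were present in mice not used to call them, each DMR was measured in the other housing condition. Of the 15 DMRs, 9 overlapped a DMR that the other table also called as more methylated in mLN, so their difference there was part of the choice. These 9 are described, and counts that include them are not read as tests. Tests are given for the other 6, namely the regions of Irx1, Irx5 and Irx6, the upstream Nkx3-2 region and the 2 Nkx3-2 regions farthest downstream. Irx1, Irx5 and Irx6 were listed in GF mice alone, whereas Nkx3-2 as a gene was listed in both. The libraries in which the Nkx3-2 DMRs were tested thus took part in the choice of that gene, through its other DMRs. Tests of Nkx3-2 DMRs are therefore not independent of the choice. Only for Irx1, Irx5 and Irx6 did the tested libraries have no part in choosing the gene.

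In the SPF libraries, limma called 4 of 4 GF-called DMRs without such an overlap as higher in mLN (Benjamini-Hochberg adjusted p from 4.05e-05 to 0.00724, over all 1293 DMRs). The background was 32.3% of the 773 GF location DMRs without an overlap, and 78.3% of those called more methylated in mLN. In all 4 the 3 mLN-SPF libraries lay above the 3 pLN-SPF libraries, where the background was 32.2% and 77.7%. The exact permutation test (two-sided) gave p = 0.1 for each, and p cannot be smaller with 3 against 3 libraries. The differences ran from 18.0 to 39.3 points with a median of 23.5, beside a median of 23.4 for the GF-called DMRs without an overlap that were more methylated in mLN.

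In SPF mice the Irx5 region differed by 39.3 ± 4.48 points (limma estimate ± SE, adjusted p = 4.05e-05), with 65.1% ± 3.87 in mLN and 25.8% ± 3.23 in pLN (SD, n = 3). Its authors' difference in GF mice, the smallest among the members at 25.3 points, was just above the smallest in the tables, 25.0 points; the library values for the same GF mice differed by 38.6 points. The Irx1 region differed by 24.5 ± 6.28 points (limma, adjusted p = 0.00431) and the Irx6 region by 22.4 ± 5.75 points (limma, adjusted p = 0.00436). The upstream Nkx3-2 region differed by 18.0 ± 5.07 points (limma, adjusted p = 0.00724).

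In the GF libraries, limma called 1 of 2 SPF-called DMRs without an overlap, beside 45.5% of the 358 such SPF location DMRs and 74.1% of those called more methylated in mLN. In the same 1 of 2 the mLN-GF libraries lay above the pLN-GF libraries, against 51.7% and 83.6%. With 2 against 2 libraries the exact permutation test cannot go below 0.333. The Nkx3-2 region chr5:41752856-41753323 differed by 27.6 ± 5.33 points (limma, adjusted p = 0.00341). The Nkx3-2 region of 5 CpGs was not called, with 10.3 ± 9.22 points (95% interval -12.4 to 33.0, limma adjusted p = 0.322). Its value moved with single libraries, to 24.6 points and an adjusted p of 0.00956 without pLN-GF replicate 1, and to -3.98 points without pLN-GF replicate 2.

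The 9 overlapping DMRs, given as a description, were all higher in mLN in the other housing condition as well. The GF-called DMR inside the Prrx1 intron, with 9 CpGs, had 70.3% ± 5.99 in mLN-SPF and 2.49% ± 2.93 in pLN-SPF (SD, n = 3). The 5 GF-called DMRs differed by 19.5 to 67.8 points in SPF mice, and the 4 SPF-called DMRs by 14.1 to 51.1 points in GF mice. The nodes overlapped in a Nkx3-2 DMR of 3 CpGs at chr5:41756897-41757007, where pLN-SPF replicate 1 with 67.7% stood above 2 mLN-SPF libraries. Its difference of 20.9 points was 13.2 points without mLN-SPF replicate 1. That of the GF-called DMR upstream of Prrx1, chr1:163356568-163357012 with 4 CpGs, was 19.5 points and fell to 12.1 points without mLN-SPF replicate 2. Counting all 15, limma called 9 of 9 GF-called DMRs as higher in mLN in SPF libraries. The background was 40.1% of the table, and 85.8% of its DMRs called more methylated in mLN. In GF libraries limma called 4 of 6 SPF-called DMRs, where these shares were 50.6% and 86.3%. Because 9 of the 15 overlap a call of the other table, nothing is read from these counts.

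**Figure D4:**
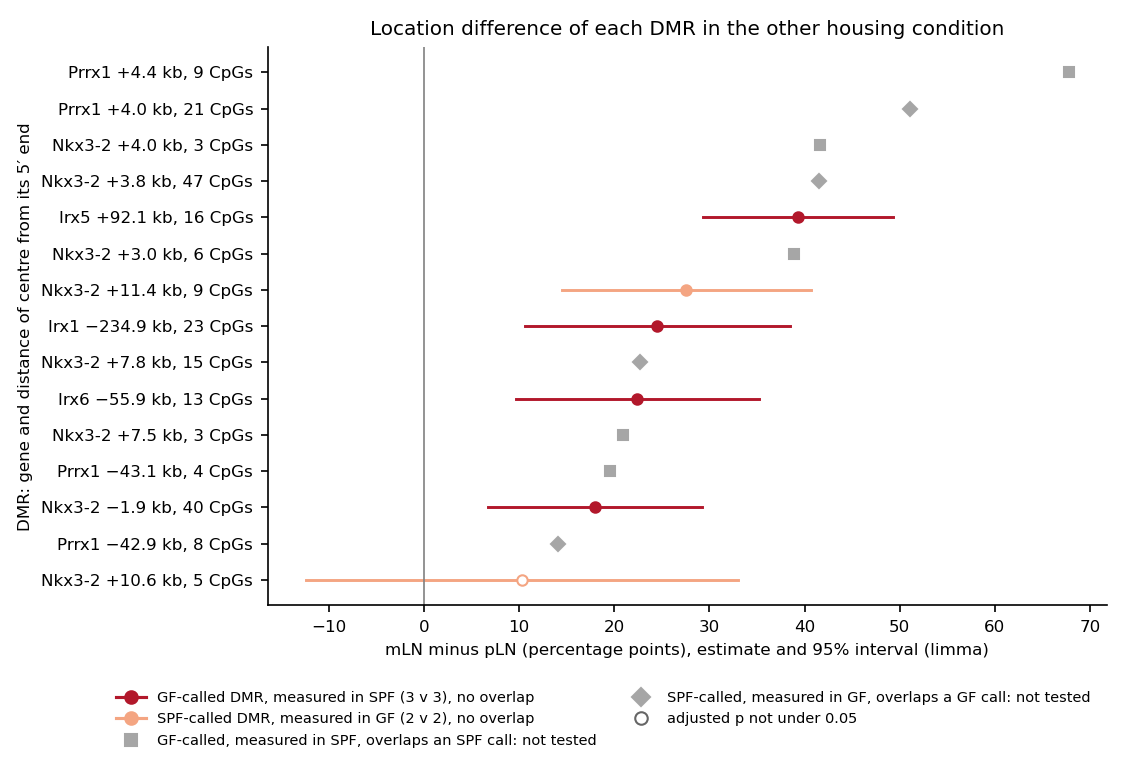
Difference mLN minus pLN in percentage points (horizontal axis) of the 15 DMRs in the other housing condition. Coloured circles with 95% intervals (limma) are the 6 DMRs without an overlap in the other table, filled where the adjusted p is under 0.05 (5 of 6; the open one is the 5-CpG Nkx3-2 region), and grey symbols are the 9 that overlap a call of the other table, shown without a test.

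Single CpGs were counted in the same DMRs without an overlap. Of 92 CpGs in the GF-called ones, 31 (33.7%) had all mLN-SPF above all pLN-SPF libraries, where the background for such DMRs called more methylated in mLN was 42.1%. Of 14 CpGs in the SPF-called ones, 6 (42.9%) had both mLN-GF above both pLN-GF libraries, where it was 51.7%. The share depends on the number of libraries, so the 2 counts are not set against each other.

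No DMR of the 5 genes was listed for housing. Of all 2132 DMRs, 806 and 1293 were location DMRs. Housing DMRs were thus few for any gene, and their absence here says little about the 5 genes. In a limma model with node and housing over all 10 libraries, 0 of the 10 regions were called for housing (adjusted p from 0.991 to 0.993), as were 0 of all 1602 regions (0%). At an unadjusted p under 0.05 there were 0 of the 10 and 72 of the 1602 (4.49%). The estimates of SPF minus GF ran from -4.73 points at Irx1 to 7.20 points at the 15-CpG Nkx3-2 region, with standard errors of 2.56 to 6.89 points. The interval was narrowest in the Prrx1 intron, from -6.15 to 4.99 points around -0.58. Within mLN, SPF minus GF was above 0 in 5 regions and below 0 in 5. Within pLN it was above 0 in 8 regions and below 0 in 2, the 5-CpG Nkx3-2 region with -4.89 points and the upstream Prrx1 region with -5.70 points.

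The location by housing interaction was called in 0 of the 10 regions by limma (adjusted p from 0.637 to 0.966), and in 0 of all 1602 (0%). At an unadjusted p under 0.05 there were 0 of the 10 and 141 of the 1602 (8.8%). The largest estimate, 22.4 ± 12.6 points, was that of the 5-CpG Nkx3-2 region, where the difference was 32.7 points in SPF and 10.3 points in GF mice. Regions called in 1 housing condition are chosen towards such a difference. In the Irx5 region the estimate was 0.78 ± 5.87 points. With standard errors of 5.15 to 12.6 points, differences between housing conditions of the size of these estimates were not detectable.

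**Figure D5:**
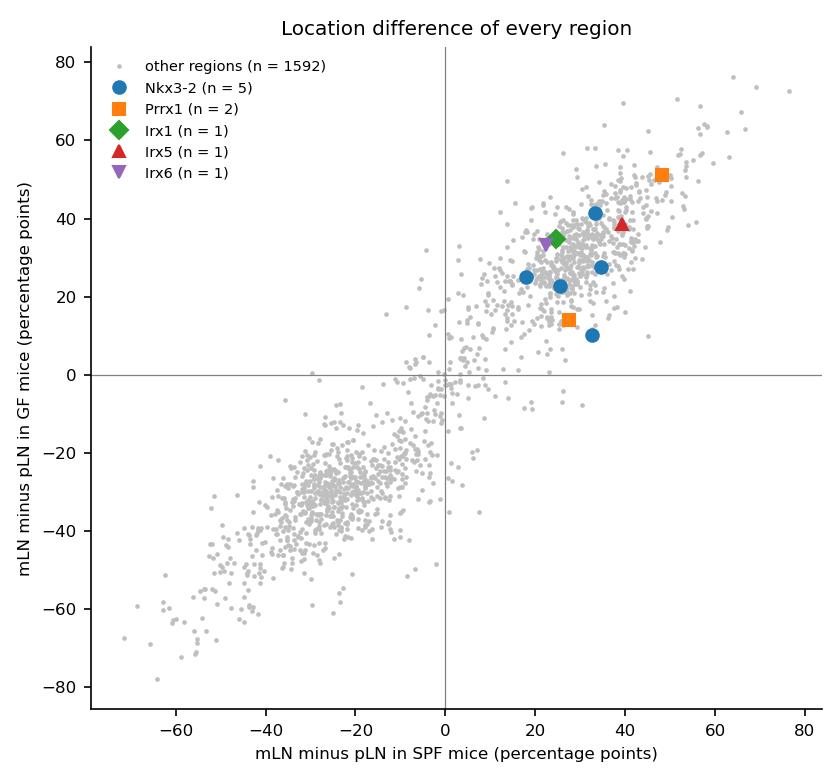
Difference mLN minus pLN in percentage points in SPF mice (horizontal axis) and in GF mice (vertical axis) for all 1602 regions; coloured symbols are the 10 regions of the 5 genes and grey points the other 1592. All 10 lie in the quadrant above 0 on both axes, with the Prrx1 intron farthest out at 48.3 and 51.1 points.

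The remaining Iroquois genes were read from a list of the family. Of the 6 genes, 4 had a location DMR, and Irx3 and Irx4 had none in the tables. Irx2 went the other way. Its GF-called DMR, chr13:72710583-72711696 (24 CpGs), had 16.9%, 20.2% and 29.3% in mLN-SPF and 17.4% and 23.2% in mLN-GF, against 49.9%, 48.9% and 48.2% in pLN-SPF and 52.8% and 53.6% in pLN-GF. It overlapped no SPF-called DMR, and in the SPF libraries limma gave -26.9 ± 4.72 points (adjusted p = 0.000464). Its other DMR, chr13:72632367-72632620 (6 CpGs), which the authors list at a distance of 0 bp from the nearest start site, was called in SPF mice. It differed by 0.35 ± 5.48 points in GF mice (limma, adjusted p = 0.952), with 28.2% ± 5.49 in mLN and 27.8% ± 7.44 in pLN (SD, n = 2). Along chromosome 13, the region between Irx1 and Irx2 was thus more methylated in mLN and the one beyond Irx2 less.

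Other gene groups to which the 5 genes belong had DMRs in both directions. As background, 58.7% of the 806 SPF location DMRs and 46.7% of the 1293 GF location DMRs were more methylated in mLN. Of 14 NK-class genes 3 had DMRs, 8 of the 12 DMRs being those of Nkx3-2. Nkx1-1 had 2 that were more methylated in mLN, and Nkx2-3, a regulator of spleen and mucosal vessels, 2 that were less methylated. Of 10 paired-type mesenchymal genes 6 had DMRs, 14 more and 21 less methylated, and the 4 of Prrx1 were among the former. Shox2, a limb gene, had 14 of its 16 DMRs less methylated.

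Both Nkx3-2 and Prrx1 also stand among 25 axial and limb skeletal regulators, of which 14 had DMRs, 20 more and 77 less methylated in mLN. The members gave 12 of those 20. Among the DMRs of this list without an overlap in the other table, limma called 3 higher and 8 lower of 12 in the SPF libraries, and 7 higher and 9 lower of 17 in the GF libraries. Less methylated were 10 of 10 DMRs of Twist1, a mesenchymal regulator, and, of the limb patterning genes, 16 of 17 of Tbx5, 9 of 9 of Lmx1b and 18 of 19 of En1. Among 14 regulators of gut and spleen mesenchyme, 7 had DMRs, 38 more and 11 less methylated, and 8 of the 38 were those of Nkx3-2. Tcf21 and Wt1, which are needed for the spleen, had 12 of 12 and 5 of 5 DMRs more methylated and Isl1 12 of 12, while Hlx, a gene of gut and liver mesenchyme, had 9 of 9 less methylated. Without an overlap in the other table, limma called 3 higher and 1 lower of 4 in the SPF libraries, and 3 higher and 1 lower of 6 in the GF libraries. Over all DMRs without an overlap, 32.3% of 773 were called higher in the SPF libraries and 45.5% of 358 in the GF libraries. In both lists the counts include the upstream Nkx3-2 region, called in SPF libraries, and the 9-CpG Nkx3-2 region, called in GF libraries. The 5-CpG Nkx3-2 region, not called, is among those tested in GF libraries.

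Regions of other genes with nearly the same levels were found for each gene by the root mean square difference over the 10 libraries, among 1592 regions. The Irx5 region was closest to regions named for Rnf220 (3.05 points) and Gm11509 (3.20 points), and the large Nkx3-2 region to those of Speer2 (4.14 points) and Sel1l (4.65 points). The Irx1 region was closest to one named for Bai3 (5.01 points) and the Irx6 region to one named for Dnajc11 (5.55 points). The nearest to the Prrx1 intron was a region named for Gabrr3 (5.03 points), with 46.7% in mLN and 3.08% in pLN.

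The median GC content of the 10 regions was 45.7%, beside 46.5% over all 1602 regions, and their median CpG density was 2.01 against 2.11 per 100 bp. The letters TAATTA, a core that many homeodomains bind and that reads the same on both strands, occurred in 0 of the 10 windows of 300 bp around the region centres, and in 153 of the 1602 (9.55%). That these letters are not in the windows says nothing about binding.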

How the data were processed

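Genomic DNA of 10 sorted stromal samples was analysed by WGBS. Reads were checked with FastQC 0.11.1, trimmed with cutadapt 1.4 and mapped to GRCm38 with BSMAP 2.4.3, the versions being those of the submitters' processing notes. The authors kept unique, paired, de-duplicated reads and CpGs of sufficient coverage, smoothed the levels with bsseq and called DMRs between pairs of groups. Because the calls rest on smoothed levels and a minimum difference, regions with a smaller or isolated difference are not in the tables. The authors deposited 4 DMR tables, with group means whose unit is a smoothed fraction (decimal commas), and 1 table with the unsmoothed fraction of methylated reads per CpG and library, which was multiplied by 100. Other columns of the authors' comparisons were not used, apart from positions, nearest genes, CpG numbers and the difference of the group means.

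Of 24182 CpGs, the 24158 that had values in all 4 groups were averaged over each DMR, or over DMRs of the 4 tables merged at an overlap of 1 bp. Percent values were fitted by lmFit and eBayes of limma 3.58.1 (R 4.3.3), with Benjamini-Hochberg adjustment over all features of a fit and a threshold of 0.05. The fits were also run on simulated data, with mean levels held to the middle of the range and so unlike the lowest member levels. No result given here rests on that run. The location fits covered every DMR of a location table. For a DMR overlapping a DMR of the other location table by at least 1 bp, no p-value of its own is given for the other housing condition. Such a DMR enters only the counts over all DMRs, from which nothing is read. Single values were compared by exact permutation (scipy 1.17.1, two-sided). The depth of each CpG is not known, so precision is given by replicate spread alone. All 24182 positions carried CG in the RefSeq GRCm38 sequence, and coordinates are 1-based. Replicates shared 11.4% to 14.2% identical CpG values and were kept as separate samples. Named genes were the 5 members, every Iroquois gene and up to 4 further genes of each list with the most CpGs in a DMR, and the 2 regions closest in level to each member. One gene that this rule names is not reported here. Members, lists and tests were chosen with earlier results of these data known. Alternatives are given at the end.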

Additional observations from a re-analysis of the deposited data

How the results depend on the processing

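The counts of called members rested on the following choices. Of the 9 GF-called and 6 SPF-called DMRs, those without an overlap in the other table gave 4 called of 4 in SPF and 1 of 2 in GF libraries, a restriction chosen after seeing the data. Their counts stayed at 4 under 11 alternatives that kept all 4, and were 1 to 2 under 9 that kept both. The counts that follow are over all DMRs. They include the overlapping ones, whose difference was part of the choice, so nothing is read from them. The shares beside them are over the whole table, in either direction. When 1 SPF library was left out, limma called 1003 to 1049 of all 1293 GF-called DMRs. Restricting the tables to an authors' difference of at least 0.35 left 3 GF-called DMRs. Of these, 3 were called in SPF libraries, beside 233 of 237 in the table. It also left 1 SPF-called DMR, of which 1 was called in GF libraries, beside 151 of 153. Fewer DMRs were thus tested. Leaving out 1 library at a time gave 7 to 9 called of 9 in SPF and 4 to 5 of 6 in GF libraries, the lone library of a GF group being assumed to vary like the others. By limma it gave 0 for housing and 0 for the interaction throughout, also on the arcsine scale and with the median over CpGs. On the arcsine scale 8 of 9 were called in SPF libraries, beside 1058 of 1293. With the median over CpGs 3 of 6 were called in GF libraries, beside 667 of 806. A gap of at least 10 points lowered the CpGs with separate nodes from 51 to 31, and leaving out a library raised them to between 55 and 70. The 5-CpG Nkx3-2 region ranged from -3.98 points in GF mice without pLN-GF replicate 2 to 24.6 points without replicate 1. Of 108 values of single DMRs 102 moved by less than the replicate SD, as did 117 of 120 for regions; the median over CpGs raised the Prrx1 intron to 55.0 and the Irx5 region to 48.6 points.

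Samples with the same replicate number had correlations of -0.037 to 0.032 over regions in 5 pairs, and other pairs had -0.061 to 0.042. Both GF pairs give the same value, -0.031, because deviations in a group of 2 mirror each other. With so few libraries these values cannot show whether the numbers pair animals, so pairing remains unknown. With the replicate number as a block, limma called 9 of 9 members in SPF libraries, beside 1082 of all 1293 DMRs. It called 4 of 6 in GF libraries, beside 721 of 806, and 0 members for housing and 0 for the interaction. No read depths were used, so the limit set by coverage is not known; regions with few CpGs, as at 5 CpGs in Nkx3-2, are the least precise.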
